A study of Mus musculus with 24 samples.

Results

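Hearts of wild-type mice after ischemia-reperfusion (I/R) were compared with hearts after sham surgery, in the tissue above the place where the left anterior descending coronary artery (LAD) was tied. The comparison takes 3 I/R arrays and 3 sham arrays, 6 of the 24 arrays of the series, chosen by their labelled genotype, surgery and location. Both groups are labelled wild-type (MuRF1+/+), 12 to 16 weeks of age. In the I/R group the LAD had been tied and reopened, and in the sham group it had not been tied, so the piece was cut above the place a tie would have had. The other 18 arrays hold the pieces below that place and both pieces from mice labelled MuRF1 Tg+, and they enter here only through the shared estimate of spread and the comparisons at the end. Each array carried RNA of 1 piece in Cy5 against RNA pooled from whole day 1 pups in Cy3, with 50 ng of RNA amplified and no dye swap, and the 3 replicates of a group are labelled as biological. The time from reopening to harvest and the strain of the hearts beyond "strain-matched" are not stated in the labels. The mouse strain named in the labels, C57BL/6, is that of the pups.

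Ischemia stops oxygen and fuel supply to the muscle that the tied artery feeds, and reperfusion adds oxidants, calcium overload and an innate immune response. Tissue above the tie keeps its supply but stays coupled to the injured wall through wall stress, circulating cytokines and stress hormones, and migrating leukocytes. Interleukin-6 family cytokines are among the best described of those signals: they act through gp130 receptors and the transcription factor STAT3 and induce acute-phase genes. The adult heart muscle cell meets its energy need from fatty acids, ketones and glucose in mitochondria that fill much of its volume, and its contraction depends on calcium release from the sarcoplasmic reticulum.

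The 2 groups differed in signal as well as in surgery. Well above background were 24.2%, 15.7% and 37.8% of Cy5 spots on I/R replicates 1, 2 and 3, against 37.0%, 36.1% and 40.7% on the sham arrays. Values of 3 arrays below are always in the order of replicates 1, 2 and 3. The reference channel did not share this loss, with 47.9% to 49.7% on the I/R arrays and 47.5% to 50.7% on the sham arrays. I/R replicates 1 and 2 therefore stand apart, and replicate 3 is the I/R array with a heart channel like that of the sham arrays. On the first principal component of the 6 arrays, with 61.6% of the variance, the I/R arrays scored -16.69, -38.44 and -2.52, against 18.29, 19.73 and 19.63 on the sham arrays. I/R replicate 3 scored 25.3 on the second component (19.5% of the variance), and no other array scored above 4.05. Replicate 1 of both groups shared a slide, so their difference is a comparison within 1 slide. The other sham arrays lay on 2 further slides, and I/R replicates 2 and 3 shared a slide that held no sham array. Within the 6 arrays, their difference from sham cannot be told apart from a difference between slides.

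Values are log2 ratios of heart over pup RNA for each probe, so a difference between groups compares the heart pieces, and ratios of different probes are not comparable. Differences are I/R minus sham with the standard error (SE) of 1 limma fit over all 24 arrays, and a gene "rose" or "fell" where its p, adjusted by the Benjamini-Hochberg method over all features, was under 0.05. In bulk tissue, fewer cells of a type and less RNA per cell cannot be told apart. Of 11427 features 1516 passed (13.3%), 684 higher (5.99%) and 832 lower (7.28%), and the median difference over all features was 0.0038. Counts of calls in each gene list below are to be read against these shares of 5.99% higher and 7.28% lower. The groups did not overlap for 665 of the features that rose and 801 of those that fell, and over all features they did not overlap for 34.0%. Among the calls, 104 rose and 57 fell by more than 2-fold. I/R replicate 3 lay above the sham mean for 682 of the 684 and below it for all 832. It is part of the group means behind the calls, so this agreement is partly built in. Differences were smaller on replicate 3. The median distance from the sham mean over the calls was 0.54, 0.62 and 0.43 on the 3 I/R arrays. Over all features it was 0.21, 0.29 and 0.15. A slide block left 259 features past the threshold, 204 of them among the 1516 in the same direction. With replicate 3 as the lone I/R array of the group, assumed to vary like the other groups, 355 passed, and 256 of the 1516 were among them. Leaving out 1 array at a time gave 1005, 755 and 2173 calls without I/R replicates 1, 2 and 3, and 893, 781 and 929 without sham replicates 1, 2 and 3.

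**Figure D1:**
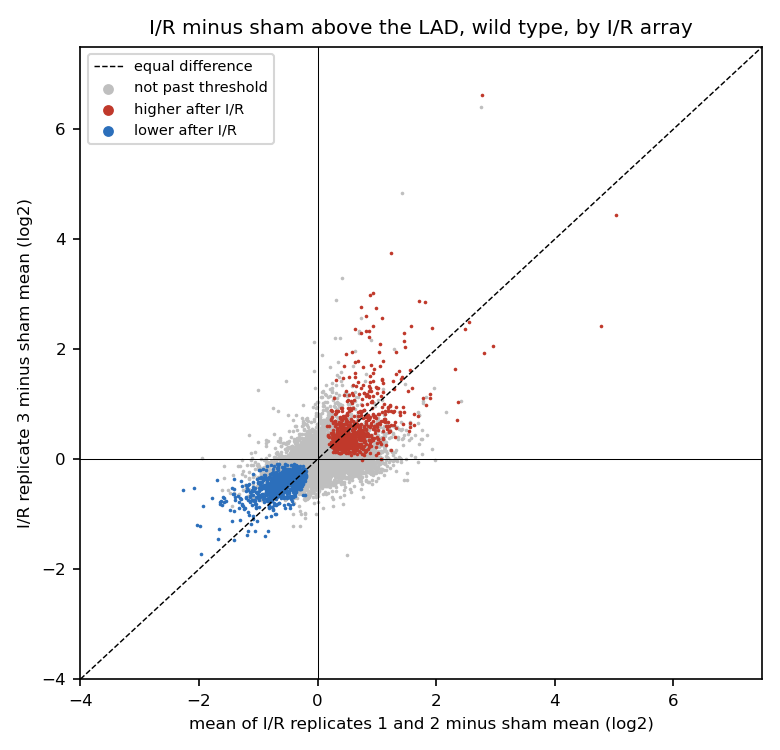
Difference from the sham mean (log2) for each of the 11427 features on I/R replicate 3 (vertical axis) against the mean of the weak-signal I/R replicates 1 and 2 (horizontal axis). Red points are the 684 features that rose, blue points the 832 that fell and grey points the rest, and the line marks equality. All but 2 of the calls lie on the same side of 0 on replicate 3, many of them nearer to 0 than on replicates 1 and 2. Replicate 3 also entered the calls, so this agreement is partly built in.

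The heart identity of the pieces was checked first. The adult heavy chain gene Myh6 had ratios of 3.59, 3.70 and 4.00 on the I/R arrays, against 4.44, 4.38 and 3.54 on the sham arrays, so both groups lay above the pup pool and they overlapped (-0.36 ± 0.39, limma adjusted p = 0.54). Of 11 ventricular cardiomyocyte markers 1 fell and 0 rose, near the shares over all features (7.28% fell and 5.99% rose), with a median of -0.36. The one that fell was Irx4, a ventricle-restricted transcription factor (-0.79 ± 0.24, limma adjusted p = 0.0343), and leaving out 1 array ended that call in 3 of 6 fits. Trim63, which encodes MuRF1, the muscle ubiquitin ligase whose transgene defines the other genotype of the series, had ratios of 1.49, 1.49 and 1.94 on the I/R arrays, against 2.25, 2.48 and 2.28 on the sham arrays. The groups did not overlap, but the difference of -0.70 ± 0.39 did not pass (limma adjusted p = 0.228).

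The IL-6 and STAT3 response was the list with the largest share of members past the threshold: of 14 tested, 10 rose and 0 fell. Lists and members were chosen with earlier results of these data known, so this share and rank describe the data and are not a test. The median of the list was 0.96 against 0.0038 over all features. On the 3 I/R arrays it was 0.73, 0.84 and 1.22, highest on the array with the stronger heart channel. At the receptor level, Osmr, the oncostatin M receptor, rose (0.92 ± 0.18, limma adjusted p = 0.00359), with ratios of 0.69, 0.75 and 1.29 on the I/R arrays, against 0.24, -0.081 and -0.20 on the sham arrays. Il4ra, the shared receptor chain for interleukins 4 and 13, rose by 0.77 ± 0.21 (limma adjusted p = 0.0229). Stat3 itself had overlapping groups, at 0.15, 0.68 and 1.47 on the I/R arrays and 0.69, 0.44 and -0.085 on the sham arrays (0.42 ± 0.28, limma adjusted p = 0.308).

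In 2 C/EBP factors and the feedback gene Socs3, unlike Stat3, the groups were far apart and the I/R arrays close together. Cebpd, a C/EBP factor of the acute phase, measured 1.28, 1.30 and 1.74 on the I/R arrays, against -0.37, -0.54 and -1.03 on the sham arrays. Its difference was 2.09 ± 0.22, a 4.24-fold rise (limma adjusted p = 3.22e-05), and within the shared slide it was 1.65. Its relative Cebpb measured 1.62, 1.86 and 1.81 on the I/R arrays, against 0.34, 0.12 and 0.095 on the sham arrays (1.58 ± 0.21, limma adjusted p = 0.000142). Socs3, which switches off gp130 signalling, measured 0.15, 0.52 and 0.56 after I/R and -0.54, -0.57 and -0.68 after sham surgery (1.00 ± 0.12, limma adjusted p = 7.67e-05). For these 3 genes every I/R array lay above every sham array, and all 3 calls held with slide as a block, with replicate 3 alone and in each fit that left out 1 of the 6 arrays. Bcl3, an NF-kappaB regulator, rose by 0.60 ± 0.18 (limma adjusted p = 0.0311). Leaving out 1 array ended the call of Bcl3 in 5 of 6 fits and that of Il4ra in 4. Osmr, Il4ra and Bcl3 were named after their values were seen.

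Socs3 is a textbook STAT3 target, and its promoter is shown because it is the feedback gene of the list with the largest share of calls. The RefSeq sequence (GRCm38.p6, minus strand, chr11:117969317-117969616, 250 bases before to 50 after the start) holds 1 match to the STAT site TTCNNNGAA, in capitals.
Socs3: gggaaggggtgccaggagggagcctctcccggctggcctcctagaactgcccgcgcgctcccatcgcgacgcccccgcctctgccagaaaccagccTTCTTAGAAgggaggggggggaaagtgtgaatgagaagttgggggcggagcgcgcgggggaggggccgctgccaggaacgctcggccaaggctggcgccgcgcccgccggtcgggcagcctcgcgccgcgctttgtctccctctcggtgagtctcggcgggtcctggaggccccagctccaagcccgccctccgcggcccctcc
The motif reads the same on both strands, and it occurs in 8.3% of the 32851 promoters of this length in the table. The match is a description of these letters, and binding was not measured.

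Timp1, Lrg1, Serpina3n and Saa3, genes for secreted proteins, rose most on replicate 3. Whether IL-6 family signals induced them was not tested. Timp1, an inhibitor of matrix metalloproteinases, had ratios of 0.94, 0.69 and 1.98 on the I/R arrays, against -0.91, -1.005 and -0.79 on the sham arrays, a 4.3-fold rise (2.10 ± 0.43, limma adjusted p = 0.0042). Lrg1, a secreted leucine-rich glycoprotein of the acute phase, measured 2.44, 2.13 and 3.13 on the I/R arrays, against 0.75, 0.86 and 0.86 on the sham arrays (1.74 ± 0.38, limma adjusted p = 0.00653). Serpina3n, a secreted serine protease inhibitor, measured 0.24, -0.15 and 1.53 on the I/R arrays, against -1.07, -1.01 and -1.07 on the sham arrays (1.59 ± 0.34, limma adjusted p = 0.00537). In each of these genes the highest of the 6 arrays was I/R replicate 3 and the groups did not overlap. The calls held in each fit that left out 1 array, but none held with slide as a block. The differences there were 1.63 for Timp1, 1.49 for Lrg1 and 1.71 for Serpina3n. Serpina3n also lost its call with the Cy5 channel alone and in a fit of the 6 arrays alone. Saa3, an inducible serum amyloid, was not well above background on any sham array, so its rise is a bound of at least 2.78-fold (means 1.48 after I/R and -0.15 after sham surgery, limma adjusted p = 0.0405). That bound sets the bright group against the dimmest probes above background, here and wherever "at least" is written. The I/R ratios of Saa3 were 0.93, 0.64 and 2.87, and leaving out 1 array ended its call in 4 of 6 fits.

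Chemokines and adhesion molecules rose in part. Of 11 tested genes of this list 5 rose and 1 fell, with a median of 0.57. Icam1, the adhesion molecule that leukocytes bind on activated endothelium, measured 0.82, 0.72 and 1.14 on the I/R arrays, against -0.23, -0.37 and -0.34 on the sham arrays (1.21 ± 0.25, limma adjusted p = 0.00466). Ccl2, which draws monocytes, measured 0.93, 1.38 and 1.23 on the I/R arrays, against -0.004, -0.045 and 0.31 on the sham arrays (1.09 ± 0.27, limma adjusted p = 0.0114). Both sets of I/R arrays were even, with no overlap with the sham arrays. Neither call held with slide as a block (1.11 for Icam1 and 0.83 for Ccl2), and that of Ccl2 was lost without I/R replicate 2. With replicate 3 as the lone I/R array the differences were 1.45 for Icam1 and 1.14 for Ccl2. The CC chemokines Ccl9 and Ccl6 varied more between I/R hearts. Ccl9 measured 0.98, 0.30 and 1.47 on the I/R arrays, against -0.17, -0.32 and -0.27 on the sham arrays (1.17 ± 0.25, limma adjusted p = 0.00508). Ccl6 measured 1.71, 0.53 and 2.91 on the I/R arrays, against 0.25, 0.20 and 0.49 on the sham arrays (1.41 ± 0.43, limma adjusted p = 0.0365), and dropping any 1 array ended that call 5 times of 6. For both chemokines replicate 3 was highest and replicate 2 lowest of the I/R arrays. Il1r1, the interleukin-1 receptor, rose by 0.49 ± 0.10 (limma adjusted p = 0.00508), a call lost with slide as a block. The gene that fell was Cxcl12, the homing chemokine made by stromal and endothelial cells, at -0.21, -0.29 and -0.20 on the I/R arrays and 0.97, 0.94 and 0.62 on the sham arrays (-1.08 ± 0.13, limma adjusted p = 0.000102), while its other probe differed by 0.34.

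Leukocyte markers split by array. Of 20 monocyte and macrophage markers 7 rose and 0 fell, with medians of 0.44, 0.11 and 0.67 on the 3 I/R arrays, and all 20 were above the sham mean on replicate 3. Lyve1, a hyaluronan receptor of resident cardiac macrophages and lymphatic vessels, measured 0.15, 0.12 and 0.86 on the I/R arrays, against -0.35, -0.59 and -0.73 on the sham arrays (0.93 ± 0.20, limma adjusted p = 0.00647). Trem2, a lipid-sensing receptor of phagocytic macrophages, measured 1.09, 0.057 and 1.33 on the I/R arrays, against -0.089, -0.0086 and 0.0079 on the sham arrays (0.85 ± 0.25, limma adjusted p = 0.0286). F13a1, coagulation factor XIII A of macrophages and platelets, rose by 0.78 ± 0.23 (limma adjusted p = 0.0312), and the lysosomal protein Cd68 rose by only 0.26 ± 0.072 (limma adjusted p = 0.0208). Lyve1 kept its call whichever array was left out, while Trem2 and F13a1 lost theirs in 5 of 6 fits and Cd68 in 3. With slide as a block none of these calls held, and Lyve1 differed by 0.62.

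Neutrophil genes had the opposite order. Of 9 markers 3 rose and 0 fell, with medians of 0.79, 1.12 and 0.52 on the 3 I/R arrays. On replicate 3, 3 of the 9 lay below the sham mean, and with slide as a block 0 of the 9 passed. S100a8, the partner of S100a9 in calprotectin, measured 0.0093, 0.34 and -1.47 on the I/R arrays, against -2.08, -2.26 and -2.20 on the sham arrays (1.81 ± 0.37, limma adjusted p = 0.00461). All I/R arrays were above the sham arrays, and replicate 3 was the nearest to them. The S100a8 call held in each fit that left out 1 array, but not with slide as a block. With replicate 3 as the lone I/R array the difference was 0.71. Retnlg, a resistin-like protein of neutrophils, was not well above background on the sham arrays and rose at least 1.86-fold (means 0.29 after I/R and -0.68 after sham surgery, limma adjusted p = 0.0105). Its call was lost without I/R replicate 2 and with slide as a block. Of the lymphocyte markers 1 was bright enough to test and it did not pass. Pf4, the platelet chemokine that macrophages also make, rose by 1.11 ± 0.30 (limma adjusted p = 0.0219; lost in 4 of 6 leave-one-out fits), and it was the only one of 5 red cell and platelet markers to pass, while 2 others fell with the Cy5 channel alone.

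Interferon-induced genes gave few calls. Of 20 tested 2 fell and 0 rose, which is near the shares over all features (7.28% fell and 5.99% rose). The median was -0.32, and 17 of the 20 lay below the sham mean on replicate 3. Gbp3, an interferon-induced GTPase, measured 0.47, 0.067 and 0.63 on the I/R arrays, against 1.04, 1.51 and 1.58 on the sham arrays (-0.99 ± 0.24, limma adjusted p = 0.0121), and dropping any 1 array ended that call 3 times of 6. Ifi44, also interferon-induced, was not well above background on any I/R array and fell at least 1.1-fold (means -0.015 after I/R and 0.25 after sham surgery, limma adjusted p = 0.0276), a call lost in 4 of the 6 leave-one-out fits.

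**Figure D2:**
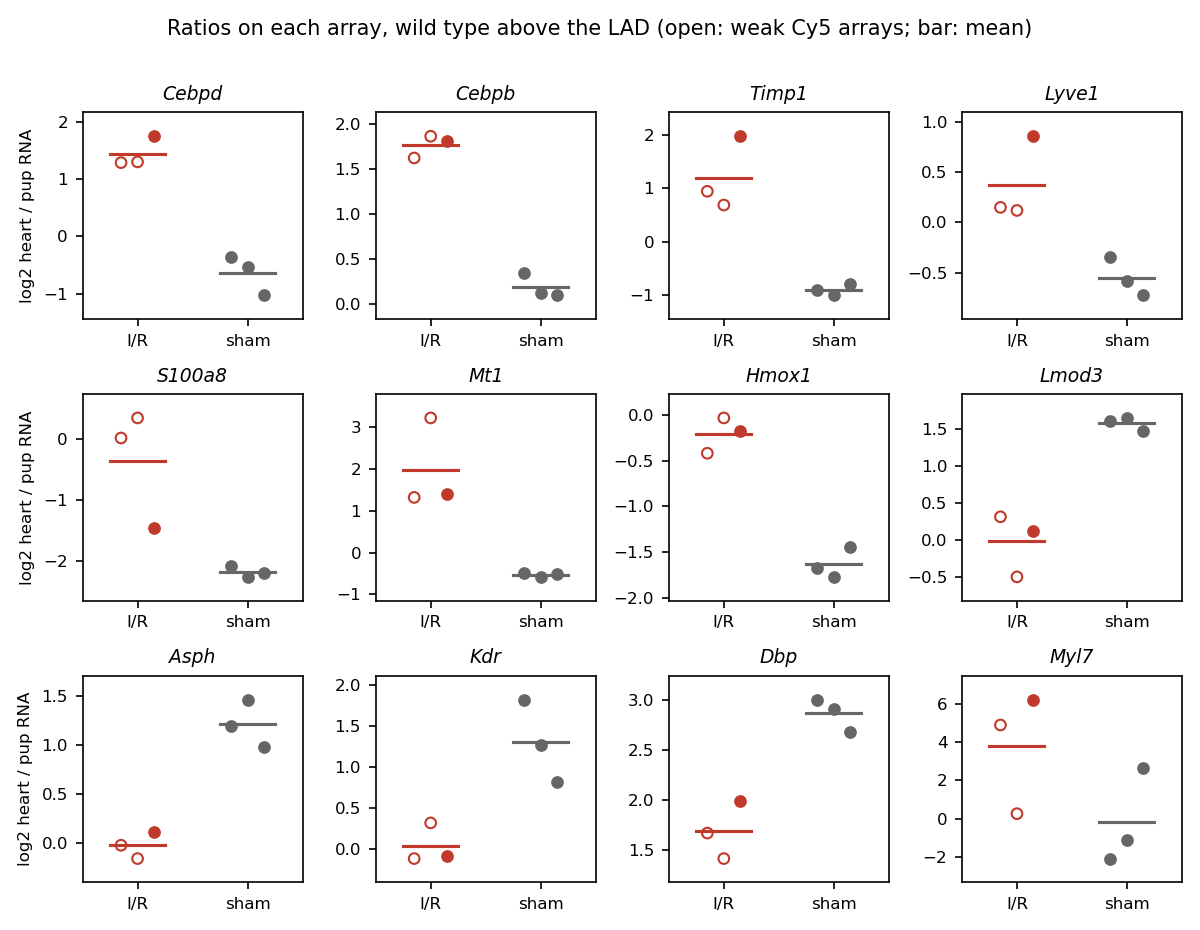
Log2 ratio of heart over pup RNA on each array for 12 genes, with the 3 I/R arrays (red, replicates 1 to 3) left of the 3 sham arrays (grey) and the group mean as a bar. Open circles mark I/R replicates 1 and 2, whose Cy5 signal was weak. Cebpd, Cebpb and Hmox1 are even across the I/R arrays, Timp1, Lyve1 and Myl7 are highest on replicate 3, and S100a8 and Mt1 are highest on replicate 2.

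Metallothioneins bind zinc and copper and rise with metals, glucocorticoids and oxidants. Mt2 measured 1.00, 3.67 and 1.74 on the I/R arrays, against -2.54, -2.91 and -2.65 on the sham arrays, and its difference within the shared slide was 3.54. Its neighbour Mt1 measured 1.32, 3.23 and 1.41 on the I/R arrays, against -0.50, -0.58 and -0.52 on the sham arrays (2.52 ± 0.49, limma adjusted p = 0.00308), with 1.82 within the slide. In both genes replicates 1 and 3 were close to each other and replicate 2, the array with the fewest detected spots, was higher. None of the other 5 tested genes of metal handling passed, or 1 with Agilent's log ratios, and the list's median was 0.10. With slide as a block neither metallothionein passed, and with replicate 3 alone Mt2 passed and Mt1 did not.
The promoters of the pair are shown because both genes rose and both are known targets of the zinc-sensing factor MTF1, which binds metal response elements. The RefSeq sequences (GRCm38.p6, plus strand, 250 bases before to 50 after the start) lie at chr8:94172368-94172667 for Mt2 and chr8:94178839-94179138 for Mt1, with matches to TGCACNC or TGCGCNC on either strand in capitals.
Mt2: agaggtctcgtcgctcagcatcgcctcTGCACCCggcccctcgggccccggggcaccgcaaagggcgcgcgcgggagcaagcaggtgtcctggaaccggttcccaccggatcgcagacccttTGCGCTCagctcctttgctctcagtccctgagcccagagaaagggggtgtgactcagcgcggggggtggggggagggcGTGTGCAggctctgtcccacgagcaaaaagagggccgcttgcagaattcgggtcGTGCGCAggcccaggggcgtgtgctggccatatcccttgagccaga
Mt1: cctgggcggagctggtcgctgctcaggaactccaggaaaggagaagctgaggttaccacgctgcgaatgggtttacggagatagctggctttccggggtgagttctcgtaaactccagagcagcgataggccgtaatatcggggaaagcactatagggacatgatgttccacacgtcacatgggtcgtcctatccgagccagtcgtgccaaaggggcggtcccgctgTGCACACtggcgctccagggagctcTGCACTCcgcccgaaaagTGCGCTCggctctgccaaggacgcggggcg
The window of Mt2 holds 4 matches and that of Mt1 holds 3, none of them overlapping. At least 1 match occurs in 25.7% of the 32851 promoters of this length in the table, at least 3 in 1.97%. Whether these sites were in use in the hearts was not measured.

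Antioxidant and iron genes rose in part. Of 22 tested 7 rose and 1 fell, with a median of 0.43 and medians of 0.37, 0.53 and 0.27 on the 3 I/R arrays. Hmox1, the inducible heme oxygenase, measured -0.42, -0.03 and -0.18 on the I/R arrays, against -1.67, -1.77 and -1.45 on the sham arrays, a 2.68-fold rise (1.42 ± 0.21, limma adjusted p = 0.000509). The I/R arrays lay close together and well above the sham arrays. The Hmox1 call held in each fit that left out 1 array, but not with slide as a block (1.20). Of the thioredoxin system, thioredoxin Txn1 rose by 0.55 ± 0.10 (limma adjusted p = 0.0019) and its reductase Txnrd1 by 0.61 ± 0.16 (limma adjusted p = 0.0185). The selenoenzyme Gpx1, a glutathione peroxidase, measured -0.90, -1.13 and -0.85 on the I/R arrays, against -1.75, -1.60 and -1.40 on the sham arrays (0.62 ± 0.11, limma adjusted p = 0.00163), and this call was not made with Agilent's own log ratios. Sqstm1, the autophagy receptor p62 and a target of the antioxidant factor Nrf2, measured 1.74, 2.51 and 1.46 on the I/R arrays, against 0.74, 0.86 and 0.91 on the sham arrays (1.07 ± 0.26, limma adjusted p = 0.0113). Gstm1, a glutathione transferase, rose by 1.05 ± 0.32 (limma adjusted p = 0.0377), but its other probe differed by -0.11, and leaving out 1 array ended its call in 5 of 6 fits. Against the rest, the peroxiredoxin Prdx6 fell: it measured 0.42, 0.84 and 0.46 on the I/R arrays, against 1.19, 1.07 and 1.21 on the sham arrays (-0.58 ± 0.10, limma adjusted p = 0.00163), and it did so with slide as a block and with replicate 3 alone.

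Chaperones did not move together. Of 19 tested 1 rose and 2 fell, near the shares over all features (5.99% rose and 7.28% fell). Hspa1a, the inducible Hsp70 with a near-identical gene copy, measured -0.15, 0.63 and -0.77 on the I/R arrays, against -1.21, -1.48 and -1.47 on the sham arrays (1.29 ± 0.34, limma adjusted p = 0.0194). The mitochondrial chaperonin Hspd1 fell (-0.67 ± 0.14, limma adjusted p = 0.00534), as did the muscle small heat shock protein Hspb3 (-0.57 ± 0.14, limma adjusted p = 0.0147). None of 19 genes of the unfolded protein response passed in either direction, with a median of 0.15. Of 17 hypoxia genes 1 rose and 3 fell, the part that rose being near the share over all features. The one that rose was Slc2a1, the basal glucose transporter Glut1, at 0.75, 0.65 and 0.52 on the I/R arrays and -0.23, -0.23 and -0.34 on the sham arrays (0.91 ± 0.22, limma adjusted p = 0.012). Egln3, a prolyl hydroxylase that marks HIF for decay, fell by 0.66 ± 0.20 on the log2 scale (limma adjusted p = 0.0324), and dropping any 1 array ended that call 5 times of 6. Vegfa, the endothelial growth factor, was lower on every I/R array (0.81, -0.066 and 1.02) than on any sham array (1.99, 1.38 and 1.31), but did not pass (-0.97 ± 0.34, limma adjusted p = 0.0666).

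A small part of the immediate early list rose. Of 19 immediate early genes 3 rose and 0 fell. Maff, a small Maf factor, measured 1.00, 1.49 and 1.30 on the I/R arrays, against 0.071, -0.15 and -0.48 on the sham arrays (1.45 ± 0.18, limma adjusted p = 0.000108). Junb, an AP-1 subunit, measured 0.72, 1.42 and 1.70 on the I/R arrays, against 0.17, 0.19 and 0.05 on the sham arrays (1.14 ± 0.24, limma adjusted p = 0.00466). Myc was not well above background on the sham arrays and rose at least 1.3-fold (means -0.067 after I/R and -0.45 after sham surgery, limma adjusted p = 0.0344), and dropping any 1 array ended that call 5 times of 6. Fos, the usual first AP-1 gene, differed by 0.31 ± 0.10 (limma adjusted p = 0.0536) and did not pass, but it passed in 5 of its 19 alternatives, among them Agilent's log ratios, where it differed by 1.89. The cell cycle inhibitor Cdkn1a rose by 0.92 ± 0.17 (limma adjusted p = 0.00231), the stress genes Gadd45b by 0.57 ± 0.10 (limma adjusted p = 0.0019) and Ddit4 by 1.26 ± 0.29 (limma adjusted p = 0.00917), while cyclin D2, Ccnd2, fell (-0.88 ± 0.14, limma adjusted p = 0.000828). Of 13 glucocorticoid response genes 3 rose and 1 fell, with a median of 0.42. The classical glucocorticoid targets Fkbp5 and Tsc22d3 differed by 0.42 ± 0.15 (limma adjusted p = 0.0631) and 0.42 ± 0.25 (limma adjusted p = 0.249), and neither passed. Each passed under some alternatives: Fkbp5 in 4 of 19, among them Agilent's log ratios (2.52), and Tsc22d3 in 2 of 19, among them replicate 3 alone (1.13).

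On the contractile side, genes of the filaments and their anchors fell in part. Of 28 sarcomere and Z-disc genes 5 fell and 0 rose, with a median of -0.14, against 7.28% lower and 5.99% higher over all features. Cardiac actin, Actc1, measured 0.19, -0.44 and 0.11 on the I/R arrays, against 1.54, 1.89 and 2.07 on the sham arrays, a difference of -1.34 within the shared slide, and it was even across the I/R arrays. Lmod3, which seeds and lengthens actin filaments, measured 0.31, -0.50 and 0.13 on the I/R arrays, against 1.61, 1.66 and 1.48 on the sham arrays (-1.60 ± 0.19, limma adjusted p = 8.54e-05). Tmod1, which caps the pointed end of actin, fell by 0.63 ± 0.17 on the log2 scale (limma adjusted p = 0.0179), and Ldb3, a Z-disc protein, by 0.69 ± 0.18 (limma adjusted p = 0.0162). Titin, Ttn, measured -0.54, 0.47 and 0.86 on the I/R arrays, against 2.33, 1.78 and 0.55 on the sham arrays, and the groups overlapped through sham replicate 3 (-1.29 ± 0.40, limma adjusted p = 0.0398). The calls of Lmod3 and Actc1 held in each fit that left out 1 array, that of Ldb3 was lost in 3 of 6, and those of Tmod1 and Ttn in 4. With slide as a block the call of Lmod3 held and that of Actc1 did not.

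Of 18 tubulin and cytoskeleton genes 1 fell and 0 rose, near the shares over all features (7.28% fell and 5.99% rose). The median of 0.24 turned negative with Agilent's log ratios and with the Cy5 channel alone. The one that fell was Tuba4a, and 2 further actin-related genes were among the named genes that fell. Actg2, the enteric smooth muscle actin, measured -0.58, -0.94 and -0.44 on the I/R arrays, against 0.46, 0.72 and 0.90 on the sham arrays (-1.34 ± 0.17, limma adjusted p = 0.000108). Xirp2, an actin-binding protein of the intercalated disc, measured 1.22, 1.26 and 1.18 on the I/R arrays, against 2.61, 2.33 and 2.14 on the sham arrays (-1.14 ± 0.24, limma adjusted p = 0.00483). Tuba4a, an alpha tubulin abundant in muscle, measured -0.059, -0.49 and 0.13 on the I/R arrays, against 1.24, 1.48 and 1.46 on the sham arrays (-1.53 ± 0.21, limma adjusted p = 0.000216). In these 3 genes no I/R array reached the lowest sham array. Replicate 3 was the I/R array nearest to the sham arrays for Actg2 and Tuba4a, and for Xirp2 the I/R arrays were almost equal. Actg2 and Tuba4a also passed with slide as a block and with replicate 3 alone.
The Actc1 promoter is shown because muscle actins are classical targets of serum response factor, which binds the CArG box. The RefSeq sequence (GRCm38.p6, minus strand, chr2:114052826-114053125) holds 1 CArG box, in capitals.
Actc1: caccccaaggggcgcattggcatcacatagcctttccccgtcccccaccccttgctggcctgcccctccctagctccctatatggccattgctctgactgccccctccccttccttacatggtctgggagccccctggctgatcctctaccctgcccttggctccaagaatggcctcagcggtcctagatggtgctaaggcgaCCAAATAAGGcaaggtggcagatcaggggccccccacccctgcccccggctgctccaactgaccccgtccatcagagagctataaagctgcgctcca
A CArG box, searched on both strands, occurs in 1.63% of the 32851 promoters of this length. Occupancy was not measured.

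Other genes were among those that fell the most. The autophagy adaptor Fyco1 measured 0.51, 0.22 and 1.21 on the I/R arrays, against 2.61, 2.47 and 2.12 on the sham arrays. The kinase Wnk1, a regulator of ion transport, measured 0.41, 0.071 and 0.80 on the I/R arrays, against 1.93, 1.63 and 1.60 on the sham arrays (-1.29 ± 0.21, limma adjusted p = 0.000804), and the potassium-chloride cotransporter Slc12a7 measured 0.85, 0.21 and 1.31 on the I/R arrays, against 2.16, 2.24 and 2.01 on the sham arrays (-1.35 ± 0.32, limma adjusted p = 0.0106). For all 3, replicate 3 was the I/R array nearest to the sham arrays. Tspan13, a tetraspanin, measured -0.99, -1.08 and -1.03 on the I/R arrays, against 0.42, 0.059 and -0.30 on the sham arrays (-1.09 ± 0.20, limma adjusted p = 0.00181), and there the 3 I/R arrays were almost equal. Of the 832 features that fell, 403 were well above background on all 6 arrays and 51 on no I/R array, so for those 51 the size of the fall is not known.

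Calcium handling genes of the sarcoplasmic reticulum fell in part, and none rose. Of 14 tested 5 fell and 0 rose, with a median of -0.62 and medians of -0.67, -0.86 and -0.31 on the 3 I/R arrays. Asph, whose locus also encodes junctin, a partner of the release channel, measured -0.02, -0.16 and 0.11 on the I/R arrays, against 1.19, 1.47 and 0.98 on the sham arrays (-1.23 ± 0.18, limma adjusted p = 0.000386). Srl, sarcalumenin, a calcium-binding protein of the reticulum lumen, measured -0.28, -0.37 and 0.34 on the I/R arrays, against 1.01, 1.04 and 0.99 on the sham arrays (-1.12 ± 0.19, limma adjusted p = 0.0013). Casq2, cardiac calsequestrin, the main calcium store, measured 0.63, 0.32 and 0.88 on the I/R arrays, against 1.30, 1.51 and 1.69 on the sham arrays (-0.89 ± 0.24, limma adjusted p = 0.0197). The groups did not overlap for any of these genes, and replicate 3 was the I/R array nearest to the sham arrays for each. Triadin, Trdn, fell by 0.97 ± 0.17 on the log2 scale (limma adjusted p = 0.00114), while its other probe differed by 0.19, and the kinase gene Camk2d fell by 0.51 ± 0.14 (limma adjusted p = 0.0234). Abcc9, the regulatory subunit of the ATP-sensitive potassium channel, also fell (-0.66 ± 0.20, limma adjusted p = 0.0336), a call that leaving out 1 array ended in 5 of 6 fits.

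**Figure D3:**
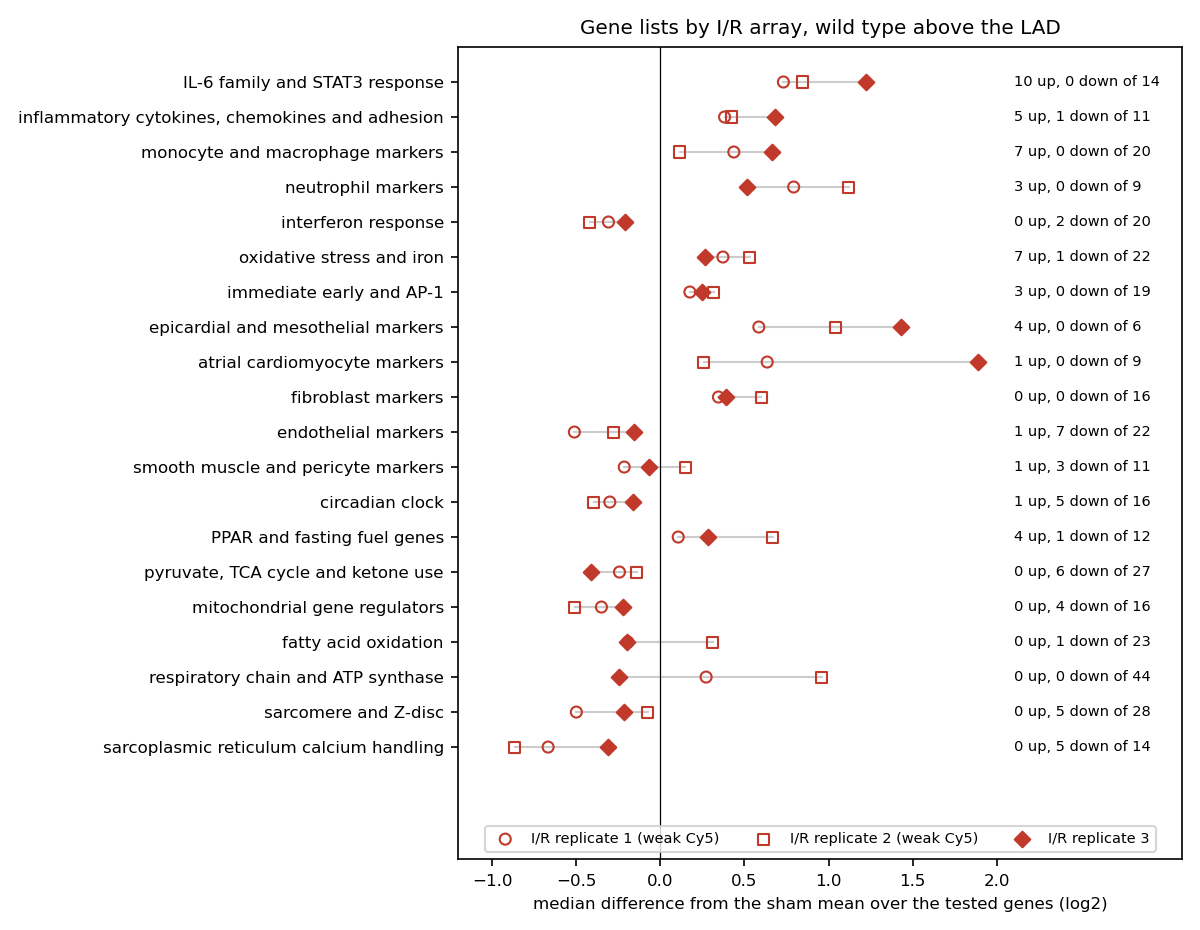
Median difference from the sham mean (log2) over the tested genes of 20 gene lists, on I/R replicates 1 (open circle), 2 (open square) and 3 (filled diamond), with the number of genes that rose and fell at the right. The IL-6 and epicardial lists lie right of 0 on all 3 I/R arrays, the calcium handling, endothelial and mitochondrial regulator lists left of 0 on all 3, and the respiratory chain list changes side on replicate 3.

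Genes for the use of pyruvate, the citric acid cycle and ketones fell in part. Of 27 tested 6 fell and 0 rose, the median was -0.24, and 25 lay below the sham mean on replicate 3. Bdh1, the mitochondrial enzyme that starts ketone oxidation, measured 0.68, 0.77 and 0.21 on the I/R arrays, against 1.67, 1.37 and 1.78 on the sham arrays (-1.05 ± 0.22, limma adjusted p = 0.00494), lowest on replicate 3. Oxct1, the next enzyme of that path, was measured by 3 probes that differed in size: its brightest did not pass (-0.60 ± 0.25, limma adjusted p = 0.113), while the other two fell by 1.66 and 1.64 on the log2 scale and passed. Oxct1 was chosen after its values were seen. Of the dehydrogenase complexes 4 subunit genes fell. Pdhb, of pyruvate dehydrogenase, measured 1.24, 1.46 and 1.21 on the I/R arrays, against 1.98, 2.20 and 2.15 on the sham arrays (-0.81 ± 0.19, limma adjusted p = 0.00916). Dlst, of the oxoglutarate complex, fell by 0.79 ± 0.14 on the log2 scale (limma adjusted p = 0.00162), and Ogdh, of the same complex, by 1.15 ± 0.33 (limma adjusted p = 0.0259). Sdhc, of succinate dehydrogenase, fell by 0.79 ± 0.18 (limma adjusted p = 0.00849). The Ogdh call was lost in 4 of 6 fits that left out 1 array, and the others held in all 6.

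Glycolysis and the regulators of mitochondrial genes fell in part. Of 19 glucose genes 5 fell and 0 rose. Pfkm, the muscle subunit of phosphofructokinase, measured 0.64, 0.89 and 0.90 on the I/R arrays, against 1.69, 1.69 and 1.51 on the sham arrays (-0.82 ± 0.13, limma adjusted p = 0.000828), and the liver-type subunit Pfkl 0.034, -0.10 and -0.029 on the I/R arrays, against 0.52, 0.43 and 0.50 on the sham arrays (-0.51 ± 0.073, limma adjusted p = 0.000275). Both passed with slide as a block and with replicate 3 alone. The pyruvate kinase gene Pkm fell by 0.61 ± 0.12 on the log2 scale (limma adjusted p = 0.00341). Among 16 mitochondrial gene regulators 4 fell and 0 rose, with a median of -0.36. Ppargc1b, the coactivator PGC-1 beta, measured -0.29, -0.60 and -0.54 on the I/R arrays, against 0.76, 0.42 and 0.55 on the sham arrays (-1.05 ± 0.10, limma adjusted p = 1.14e-05). It had the smallest p of the genes named here that fell, and its replicate 3 value lay between those of the weak-signal arrays. Perm1, a muscle regulator of mitochondrial genes, fell by 1.36 ± 0.44 on the log2 scale (limma adjusted p = 0.0485), the fusion gene Mfn2 by 0.64 ± 0.18 (limma adjusted p = 0.0262) and Opa1 by 0.53 ± 0.13 (limma adjusted p = 0.013). Leaving out 1 array ended the call of Perm1 in 5 of 6 fits, that of Mfn2 in 4 and that of Opa1 in 2.

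The list of respiratory chain genes gave no call, and its median changed sign between the I/R arrays. Sdhc, which fell, is also a subunit of the chain but was counted with the citric acid cycle genes. None of the 44 subunit genes in the list passed, although 5 fell with the Cy5 channel alone. The median difference was 0.27 and 0.96 on I/R replicates 1 and 2 but -0.25 on replicate 3, where 33 subunits lay below the sham mean. In the fit without the 5 weak-signal arrays of the series the list's median was -0.25, and 8 of 42 subunits fell. Fatty acid oxidation genes split in the same way, with medians of -0.19, 0.31 and -0.20 on the I/R arrays and 1 call among 23. For both lists the part of the Cy5 signal in the order of the arrays was not tested.

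Genes that fasting and fatty acids induce through PPAR receptors rose in part, and the receptor gene Ppara fell. Of 12 tested 4 rose and 1 fell. Pdk4, the kinase that turns off pyruvate dehydrogenase, measured 1.37, 3.72 and 1.65 on the I/R arrays, against -0.30, -0.25 and -0.71 on the sham arrays, and Angptl4, which inhibits lipoprotein lipase, measured -1.58, 1.39 and -0.21 on the I/R arrays, against -2.37, -2.58 and -2.82 on the sham arrays. Acot1, a fatty acyl-CoA thioesterase, measured 0.057, 0.91 and -0.43 on the I/R arrays, against -1.36, -0.94 and -1.33 on the sham arrays (1.39 ± 0.37, limma adjusted p = 0.0183). In each of them replicate 2 was the highest array, and none passed with replicate 3 alone. Plin2, a lipid droplet coat protein, rose by 0.65 ± 0.20 (limma adjusted p = 0.0388), a call lost in 4 of the 6 leave-one-out fits. Ppara, the fatty acid-sensing nuclear receptor, measured 0.17, -0.038 and 0.16 on the I/R arrays, against 0.71, 0.68 and 0.96 on the sham arrays (-0.69 ± 0.13, limma adjusted p = 0.00225), and its I/R arrays lay below all sham arrays.

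Part of the circadian clock list was lower in I/R hearts. Of 16 clock genes 5 fell and 1 rose, with a median of -0.25. The 3 PAR-bZIP activators, which drive clock output through D-boxes, all fell. Dbp measured 1.67, 1.41 and 1.99 on the I/R arrays, against 3.01, 2.91 and 2.69 on the sham arrays (-1.18 ± 0.24, limma adjusted p = 0.00365). Tef measured -0.22, 0.13 and 0.23 on the I/R arrays, against 1.06, 1.04 and 1.11 on the sham arrays (-1.02 ± 0.14, limma adjusted p = 0.000275). Hlf fell by 0.52 ± 0.12 on the log2 scale (limma adjusted p = 0.00895). Nfil3, the repressor that competes for the same D-boxes, rose: it measured 0.46, 0.42 and 0.24 on the I/R arrays, against -0.51, -0.56 and -0.53 on the sham arrays (0.90 ± 0.20, limma adjusted p = 0.00728). Usp2, a clock-controlled deubiquitinase, fell by 0.92 ± 0.16 on the log2 scale (limma adjusted p = 0.00154), and Ciart, a repressor of CLOCK and BMAL1, by 0.46 ± 0.11 (limma adjusted p = 0.00928). Arntl, which encodes BMAL1, differed by 0.17 ± 0.11 and did not pass (limma adjusted p = 0.308). All 6 calls held in each fit that left out 1 of the 6 arrays, but only that of Tef held with slide as a block and with replicate 3 alone, where 1 clock gene fell and 0 rose. The labels do not state the time of day of harvest.
The Ciart promoter is shown because it holds several E-boxes, the site that CLOCK and BMAL1 bind, and it was picked for them. The RefSeq sequence (GRCm38.p6, minus strand, chr3:95882179-95882478) holds CACGTG 3 times, in capitals.
Ciart: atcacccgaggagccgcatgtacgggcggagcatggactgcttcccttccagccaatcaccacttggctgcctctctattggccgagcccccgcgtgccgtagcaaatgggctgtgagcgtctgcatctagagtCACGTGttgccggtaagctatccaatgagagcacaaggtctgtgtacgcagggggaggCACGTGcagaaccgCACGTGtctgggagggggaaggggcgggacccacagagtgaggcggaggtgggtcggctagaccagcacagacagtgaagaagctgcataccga
The motif reads the same on both strands. At least 1 occurs in 7.15% of the 32851 promoters of this length, at least 3 in 0.0883%. Because the promoter was picked for its E-boxes, these shares are a description and not a test. Binding was not measured.

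Endothelial markers fell in part, and 1 rose. Of 22 endothelial markers 7 fell and 1 rose, with a median of -0.35 and medians of -0.51, -0.28 and -0.16 on the I/R arrays. Kdr, the main VEGF receptor, measured -0.11, 0.32 and -0.083 on the I/R arrays, against 1.82, 1.27 and 0.81 on the sham arrays (-1.26 ± 0.21, limma adjusted p = 0.00085). The sham arrays spread widely and still lay above all I/R arrays, and the call held with slide as a block and with replicate 3 alone. Erg, an endothelial ETS factor, measured 0.36, -0.10 and 0.44 on the I/R arrays, against 1.12, 1.01 and 0.83 on the sham arrays (-0.75 ± 0.16, limma adjusted p = 0.00508). Ptprb, a phosphatase of endothelial junctions, fell by 0.73 ± 0.24 on the log2 scale (limma adjusted p = 0.0455) and Sox18 by 0.60 ± 0.17 (limma adjusted p = 0.0255), both lost in 4 of 6 fits that left out 1 array. The pan-endothelial cadherin Cdh5 had overlapping groups (-0.36 ± 0.29, limma adjusted p = 0.394). The exception was Plvap, the diaphragm protein of fenestrated and activated vessels, at -0.16, -0.11 and 0.69 on the I/R arrays and -0.36, -0.60 and -0.31 on the sham arrays (0.56 ± 0.18, limma adjusted p = 0.0479), highest by far on replicate 3. Its call was lost in 4 of 6 fits that dropped 1 array, without background correction, with Agilent's log ratios and with slide as a block, and it held with replicate 3 alone.

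Of 11 smooth muscle and pericyte markers 3 fell and 1 rose. Rgs5, a pericyte regulator of G protein signals, measured 1.17, 0.73 and 1.35 on the I/R arrays, against 2.01, 1.92 and 1.77 on the sham arrays (-0.81 ± 0.23, limma adjusted p = 0.0229), and Kcnj8, a pericyte potassium channel, measured 0.30, -0.045 and -0.082 on the I/R arrays, against 0.72, 0.69 and 0.39 on the sham arrays (-0.54 ± 0.12, limma adjusted p = 0.00744). Tagln, an actin-binding protein of smooth muscle and activated fibroblasts, rose, at -1.10, -1.07 and 0.26 on the I/R arrays and -2.21, -1.74 and -1.93 on the sham arrays (1.32 ± 0.41, limma adjusted p = 0.04). The rise was on replicate 3 above all, and leaving out 1 array ended the call in 5 of 6 fits. The smooth muscle actin gene Acta2 fell by 0.77 ± 0.19 on the log2 scale (limma adjusted p = 0.0138), but its other 2 probes differed by 0.28 and 0.46.

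Single matrix genes and most of the surface-layer markers rose, without a fibroblast call. None of 16 fibroblast markers passed, or 1 without background correction and with Agilent's log ratios, although the median was 0.46, 9 did not overlap between groups and lay higher after I/R (16.8% of all features do so), and all 16 were above the sham mean on replicate 3. Ccn2, a matrix growth factor, measured 0.16, 2.56 and 2.40 on the I/R arrays, against -0.37, -0.47 and -0.51 on the sham arrays, so replicate 1 lay near the sham arrays and the other two far above. S100a4, a calcium-binding protein of fibroblasts and leukocytes, measured 0.60, -0.60 and 0.85 on the I/R arrays, against -1.84, -1.51 and -1.37 on the sham arrays (1.86 ± 0.33, limma adjusted p = 0.00139). Mgp, matrix Gla protein, an inhibitor of calcification, measured 1.39, 1.66 and 2.10 on the I/R arrays, against -0.044, -0.093 and 0.28 on the sham arrays (1.67 ± 0.24, limma adjusted p = 0.000336). Of 6 epicardial and mesothelial markers 4 rose, among them the simple keratins Krt18 (1.40 ± 0.34, limma adjusted p = 0.0115) and Krt19 (1.03 ± 0.29, limma adjusted p = 0.0237), the call of Krt19 being lost in 5 of 6 fits that dropped 1 array. Msln, mesothelin of the heart's surface layer, measured -0.46, -0.51 and 1.27 on the I/R arrays, against -1.47, -1.53 and -1.43 on the sham arrays, and the list's median was 0.59, 1.04 and 1.43 on the I/R arrays.

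Atrial genes varied widely between single arrays in both groups. Myl7, the atrial light chain, measured 4.90, 0.26 and 6.23 on the I/R arrays, against -2.09, -1.13 and 2.67 on the sham arrays, and did not pass (3.98 ± 1.47, limma adjusted p = 0.0766). Myl4, the other atrial light chain, measured 0.65, -1.70 and 2.89 on the I/R arrays, against -2.93, -2.46 and -0.47 on the sham arrays (2.57 ± 0.96, limma adjusted p = 0.0786). Sln, sarcolipin, the atrial inhibitor of the calcium pump, measured 0.16, -2.33 and 2.77 on the I/R arrays, against -4.73, -4.67 and -2.17 on the sham arrays. All 3 genes put the arrays in the same order at the top, I/R replicate 3, I/R replicate 1, sham replicate 3 and I/R replicate 2, with sham replicates 1 and 2 lowest. Sln passed, but its call was lost in 4 of the 6 leave-one-out fits. It was also lost with Agilent's log ratios, with the Cy5 channel alone and with slide as a block. Myl7 and Myl4 did not pass, and the groups overlapped for each of the 3 genes. Nppa, the atrial natriuretic peptide that stressed ventricle also makes, overlapped as well, at 4.04, 1.43 and 4.65 on the I/R arrays and 2.97, 1.96 and 2.40 on the sham arrays (0.93 ± 0.63, limma adjusted p = 0.315). Among 9 atrial markers 1 rose and 0 fell, with medians of 0.64, 0.26 and 1.89 on the I/R arrays. How much of the other differences went with atrial tissue in a piece was not tested. Myl4 was chosen after its values were seen.

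**Figure D4:**
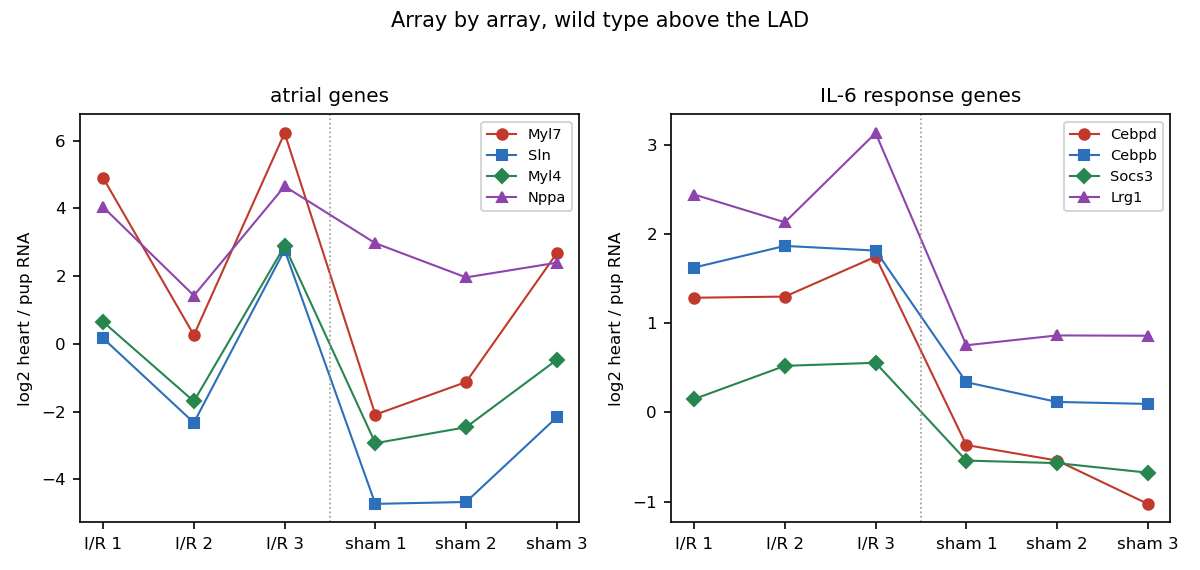
Log2 ratio on each of the 6 arrays for the atrial genes Myl7, Sln, Myl4 and Nppa (left panel) and for the IL-6 response genes Cebpd, Cebpb, Socs3 and Lrg1 (right panel), with I/R replicates 1 to 3 left of sham replicates 1 to 3 and a line per gene. The atrial lines peak on I/R replicates 1 and 3, and those of Myl7, Sln and Myl4 are higher on sham replicate 3 than on the other sham arrays, while each IL-6 response gene is higher on every I/R array than on any sham array.

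The response above the tie was then set against the nearest groups of the series. Between the piece above and the piece below, no feature passed for a difference in I/R response in wild-type hearts (limma, 0 of 11427, 0.0%). An unadjusted limma p under 0.05 was reached by 206. On I/R replicate 1 of the piece below, only 9.9% of Cy5 spots were well above background. Without that array 2 features passed and 2011 had an unadjusted limma p under 0.05. Because the unadjusted count depended this much on 1 weak-signal array, the 0 does not show that the responses were equal. With all arrays in the fit, the 3 genes with the smallest p were all higher above. Arl4a, a small GTPase of the Arf family, changed by 1.40 ± 0.13 above and by 0.68 below (difference 0.72 ± 0.18, limma adjusted p = 1). Mgp changed by 1.67 ± 0.24 above and by 0.46 below (difference 1.21 ± 0.34, limma adjusted p = 1), and Igfbp6, an IGF-binding protein, by 0.40 ± 0.091 above and -0.067 below (difference 0.46 ± 0.13, limma adjusted p = 1). Above the tie, Arl4a measured 0.10, 0.18 and 0.37 on the I/R arrays, against -1.23, -1.09 and -1.24 on the sham arrays (limma adjusted p = 1.14e-05). The groups did not overlap, and the call held in each fit that left out 1 array, with slide as a block and with replicate 3 alone. The list medians were close above and below for the IL-6 response (0.96 and 0.91) and calcium handling (-0.62 and -0.55). Other lists lay further apart, with no test of the difference: the median of the epicardial markers was 1.04 above and 0.46 below, of the atrial markers 0.82 above and 0.18 below, of the macrophage markers 0.39 above and 0.13 below, of the fibroblast markers 0.46 above and 0.19 below, and of the cardiac stress genes 0.10 above and 0.50 below. The design takes both pieces from each heart, though the labels do not say which arrays share one, so these are not independent results.

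Between genotypes, 2 of 11427 features (0.0175%) differed in their I/R response above the tie, and 944 had an unadjusted p under 0.05. The 2 features were Sprr2b and Sprr2k, near-identical genes for small proline-rich proteins of skin. The median of the IL-6 response was 0.96 in wild-type and 1.11 in Tg+ hearts, and that of calcium handling -0.62 and -0.34. Endothelial markers had medians of -0.35 in wild-type and 0.21 in Tg+ hearts, a difference between lists that was not tested, and no endothelial gene differed between genotypes after adjustment.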

How the data were processed

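RNA of 24 heart pieces was measured on 2-colour Agilent arrays with 41174 gene probes. Spot intensities were extracted by the authors with Feature Extraction 9.5.3.1, per the file headers, which also give the log10 ratio of red over green. The deposited value table of the series states no scale, centring or direction. Set against those log ratios array by array (r 0.987 to 0.999, slope 1.00 to 1.01, medians -0.11 to 0.14), the deposited table holds log2 ratios of red over green, made by the authors in a way no source used here gives. Heart RNA was in Cy5 and pup RNA in Cy3, per the labels, although the labelling text names Cy3-CTP for both, and the high heart-muscle ratios (Myh6) fit heart over pup.

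Mean spot intensities were background-corrected with normexp (offset 50), normalized within each array by loess with control and outlier spots at weight 0, and averaged by probe (limma 3.58.1, R 4.3.3). The offset understates changes of dim genes. Probes well above background in Cy5 on all unflagged arrays of 1 or more groups were kept (15423), and the brightest probe stood for each gene (11427 features). Names came from the RefSeq table (GRCm38.p6) by accession (23075 probes), symbol (6582) or older symbol (3077), and 8440 probes kept the array's name. A limma fit of 8 groups with 16 residual degrees of freedom gave moderated tests, adjusted over all features at 0.05. Dim groups gave bounds as described in the text. The replicates are labelled biological with no animal named, so p-values measure the spread between these samples. Same-numbered I/R and sham arrays did not pair (correlations of their deviations -0.28, -0.0083 and 0.003). The arrays lay on 7 slides.

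Genes were named by rule: the 15 largest changes each way, the 10 each way with the largest smallest-array difference, up to 6 called members and the first 2 genes of each list, and the 3 smallest p-values or up to 4 calls each way of each comparison of responses. Members and lists were chosen with earlier results of these data known. Of 184 such genes 146 had a promoter in the RefSeq table. Alternatives were the background correction, the log ratio source, the filter, the probe rule, blocks for slide, replicate and heart, array weights and arrays left out. The limma step was tested on simulated data.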

Additional observations from a re-analysis of the deposited data

Results flagged for a closer look

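The I/R response above the tie differed between wild-type and Tg+ hearts for 2 features. Sprr2b, a small proline-rich protein gene of epithelia, measured -0.25, -0.049 and -0.18 on the wild-type I/R arrays, against -0.18, -0.34 and -0.35 on the wild-type sham arrays, and these groups overlapped. In Tg+ hearts its means were 0.055 after I/R and 1.36 after sham surgery, a change of -1.31, so the response differed by 1.44 ± 0.13 (wild type minus Tg+, SE, limma adjusted p = 2.00e-05). Sprr2k measured 0.16, 0.01 and -0.021 on the wild-type I/R arrays, against 0.0017, 0.065 and -0.08 on the wild-type sham arrays, with Tg+ means of 0.15 after I/R and 1.03 after sham surgery, a change of -0.88 (difference 0.93 ± 0.11, limma adjusted p = 0.000242). In both genes the Tg+ sham arrays had the highest mean of the 4 groups above the tie, and no change passed in wild-type hearts. The genes are near-identical copies, so their probes may read the same transcripts, and this was not tested. Neither call was made with Agilent's log ratios, with the Cy5 channel alone or with slide as a block, and that of Sprr2k was not made in a fit of the compared arrays alone. Groups of 3 arrays are too small for a test of single outlying arrays.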

How the results depend on the processing

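The count of 1516 features (684 higher, 832 lower, so 45.1% higher) kept within 1.5 times under no background correction (1546, 1359 of them among the 1516), Agilent's own log ratios (1078, 684 shared), the authors' value table (1084, 686 shared), no filter on dim probes (1147, 1097 shared) and the mean of all probes of a gene (1520, 1331 shared). Fewer than 1 in 2 of the calls were thus the same features with Agilent's log ratios or the authors' table. It fell to 950 (306 higher, 32.2%) with the Cy5 channel alone, to 259 (77 higher, 182 lower) with slide as a block, to 794 (406 higher, 388 lower) in a fit of the 6 arrays alone and to 355 (243 higher, 112 lower) without wild-type I/R replicates 1 and 2, and it was 4167 (2270 higher, 1897 lower) with array weights. Without the 5 weak-signal arrays of the series 1470 features passed, 808 of them shared with the 1516. Leaving out 1 array gave 755 to 2173 features (334 to 1012 higher, 386 to 1161 lower). With Agilent's log ratios the median over all features shifted to -0.17. A replicate block with the number as a fixed term gave 1297 and one with the heart as a random term 1513 (consensus correlation 0.0761). The heart term takes same-numbered pieces above and below as 1 heart. In wild type their deviations correlated at -0.28, -0.735 and 0.53 after I/R (replicates 1, 2 and 3). After sham surgery they correlated at 0.43, -0.28 and -0.14, so the sign varied. The causes of these differences were not tested, beyond the smaller number of arrays where some were left out.
The count of features whose response differed above and below the tie, 0, became 809 with array weights, 215 without the 5 weak-signal arrays and 30 without wild-type I/R replicates 1 and 2, and lay between 0 and 2 when 1 array was left out. The count between genotypes, 2, became 0 with Agilent's log ratios, the authors' table, the Cy5 channel alone and slide as a block, 1 with the compared arrays alone, 976 with array weights, 49 without the 5 weak-signal arrays, 6 without replicates 1 and 2, and lay between 2 and 9 when 1 array was left out.
For 116 of the called genes named here, over 2204 alternative values, 1646 stayed past the threshold, 558 did not and 0 changed sign. The 13 named genes that were not called passed in 35 alternatives. Leaving out 1 array ended the calls of Acot1, Angptl4, Casq2, Camk2d, Fhl1, Hspa1a, Hspb3, Rgs5 and Txnrd1 in 3 of 6 fits. Stat3, not called, turned to -0.21 with slide as a block. Of 38 gene lists, 25 kept the sign of their median relative to all features in every setting. The sign changed under 1 or more of the 4 scaling settings for 8 lists: red cell and platelet, heat shock, cell death, cell cycle, fatty acid oxidation, respiratory chain, muscle ubiquitin ligase, and cytoskeleton genes.
Weak Cy5 signal on I/R replicates 1 and 2 limits what can be said of dim genes, and 51 of the features that fell were not well above background on any I/R array.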

Other observations

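Further genes passed in wild-type I/R hearts above the tie, in lists whose share of calls was mostly near that of all features (5.99% higher, 7.28% lower). Fhl1, a LIM protein of stretched and hypertrophic muscle, measured -1.44, 0.13 and -1.33 on the I/R arrays, against -3.00, -3.03 and -2.90 on the sham arrays (2.10 ± 0.56, limma adjusted p = 0.0191). Rps27, a ribosomal protein with processed copies in the genome, so that its probe is uncertain, measured 0.89, 2.12 and 0.18 on the I/R arrays, against -0.89, -0.92 and -0.80 on the sham arrays (1.93 ± 0.59, limma adjusted p = 0.0374), and dropping any 1 array ended that call 5 times of 6. Both were highest on I/R replicate 2, and the part of that array's weak Cy5 signal was not tested. Of 14 genes of the nucleolus 2 rose, nucleophosmin Npm1 (0.67 ± 0.19, limma adjusted p = 0.0266) and fibrillarin Fbl (0.52 ± 0.15, limma adjusted p = 0.0256), each lost in 4 of 6 fits that dropped 1 array.

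Of 17 genes of muscle protein turnover 2 rose and 2 fell. Besides Sqstm1, Gabarapl1, an autophagosome protein, rose and was even across the I/R arrays (1.43, 1.54 and 1.49, against 0.61, 0.50 and 0.58 on the sham arrays, 0.92 ± 0.17, limma adjusted p = 0.00203), though its other probe differed by -0.14. Besides Fyco1, the muscle ubiquitin ligase subunit Asb10 fell (-1.37 ± 0.40, limma adjusted p = 0.0291), and dropping any 1 array ended that call 5 times of 6. Of 13 glucocorticoid response genes 3 rose, among them the sulfotransferase Sult1a1 (0.89 ± 0.16, limma adjusted p = 0.00205), and 1 fell, the transcription factor Klf9 (-0.58 ± 0.16, limma adjusted p = 0.0234), lost in 5 of 6 such fits. Among 10 genes of neurohormonal signalling 1 rose, the endothelin receptor Ednrb (0.39 ± 0.12, limma adjusted p = 0.0334), lost in 4 of 6.

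None of 6 adipocyte markers passed, but their median was 0.65, 1.54 and 0.23 on the I/R arrays. Of 18 cell death genes 2 rose, Gadd45b and Gadd45g (1.20 ± 0.38, limma adjusted p = 0.0411), the call of Gadd45g being lost in 5 of 6 such fits, and of 17 matrix genes 1 rose, Ccn2. Of 12 cell cycle genes 1 fell, Ccnd2, and of 13 cardiac stress genes 1 rose and 1 fell, Fhl1 and Xirp2.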
